A study of Arabis alpina with 19 samples.

Results

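These are the transcripts of the Arabis alpina stem that stood out at 7 weeks and at no other time or place sampled. A target, one entry of the transcript reference, belonged to the set if its mean abundance, in TPM (transcript abundance scaled to length and to a fixed library total), separated 7 weeks from the other 5 groups. The 6 group means were put on the log2(TPM + 1) scale and sorted. The widest gap between neighbours had to be at least 1 and had to lie just below the 7-week group, whose mean had to be at least 5 TPM. Of the 30158 targets in the table of the whole series, 485 met these conditions, and the 150 with the widest gaps are described here as the members. The group means chose the members, so the excess at 7 weeks is a description and carries no test.

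Arabis alpina is a perennial relative of Arabidopsis. The pep1-1 mutation, in the gene PERPETUAL FLOWERING 1, removes a flowering repressor, and plants carrying it flower without a cold period and keep flowering. Along each side branch, a lower perennial zone (PZ) persists and thickens through secondary growth, the production of wood, bast and storage tissue by the cambium, while the annual zone (AZ) above it bears the flowers and dies back after fruiting. Every sample of the series came from pep1-1 plants in long days, with no other genotype or treatment. The first internode of the perennial zone, from branches at the lowest nodes of the main axis, gave the groups I_PZ at 4 weeks, II_PZ at 5 weeks, III_PZ at 7 weeks and IV_PZ at 30 weeks, each of 3 libraries. Also at 30 weeks, the annual zone gave IV_AZ_si, 4 libraries of a short internode, and IV_AZ_if, 3 libraries of an internode beside the inflorescence. Each replicate pooled 12 plants, and whole internodes were used, so a library mixes all cell types of the stem. In such bulk samples, fewer cells of a type and less RNA per cell cannot be told apart.

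The 19 libraries held 21032841 to 27999048 estimated counts. Gene names are not paired with the identifiers in the files, and no annotation was used here, so the members are given by identifier, and neither their functions nor markers of the labelled stem tissue could be checked. Of the identifiers, 149 end in h1 and 1 in h2. Replicate 3 of I_PZ held transcripts of the 7-week stem that the other I_PZ libraries lacked. Replicate 3 was therefore left out of the I_PZ mean and of the main tests, and its values are given separately. Replicate 3 of II_PZ and replicate 2 of IV_AZ_si also held more of the members than the other libraries of their groups, and counts are given with and without them where these change.

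A peak at 7 weeks alone was the most frequent single-group pattern under these conditions. The 485 targets compare with 349 that stood out in IV_PZ alone, 93 in IV_AZ_if, 80 in IV_AZ_si, 55 in I_PZ and 19 in II_PZ. A further 196 targets stood out in III_PZ and IV_PZ together, that is, in the perennial zone at both 7 and 30 weeks. III_PZ was joined by IV_AZ_si for 24 targets, by II_PZ for 4 and by IV_AZ_if for 1.

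At 7 weeks the members held 3.93%, 3.07% and 3.98% of all TPM in the 3 III_PZ libraries, a mean of 3.66% ± 0.512 (SD, n = 3). No other library exceeded 0.724%. The shares were 0.251% and 0.237% in I_PZ replicates 1 and 2, between 0.266% and 0.573% in II_PZ, between 0.202% and 0.254% in IV_PZ, between 0.225% and 0.724% in IV_AZ_si, and between 0.144% and 0.205% in IV_AZ_if. Much of this TPM comes from a few short targets. The most abundant member alone held 45.3% of the members' TPM in III_PZ, and the top 2 held 55.8%. TPM divides a count by the effective length, the number of positions at which a fragment can start, and this was only 7.59 bases for the first of them and 17 bases for the second. The 14 members shorter than 300 bases (9.33% of the members, against 11.4% of the 16475 targets with at least 5 TPM in III_PZ) held 59.1% of the members' TPM. Counted as estimated reads in place of TPM, the members held 2.41% ± 0.157 (SD, n = 3) of III_PZ, against 0.103% ± 0.00170 (SD, n = 2) of I_PZ, 0.166% ± 0.0732 (SD, n = 3) of II_PZ, 0.135% ± 0.0119 (SD, n = 3) of IV_PZ, 0.201% ± 0.110 (SD, n = 4) of IV_AZ_si and 0.0875% ± 0.00893 (SD, n = 3) of IV_AZ_if. On either scale every III_PZ library lay well above every other library.

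**Figure D1:**
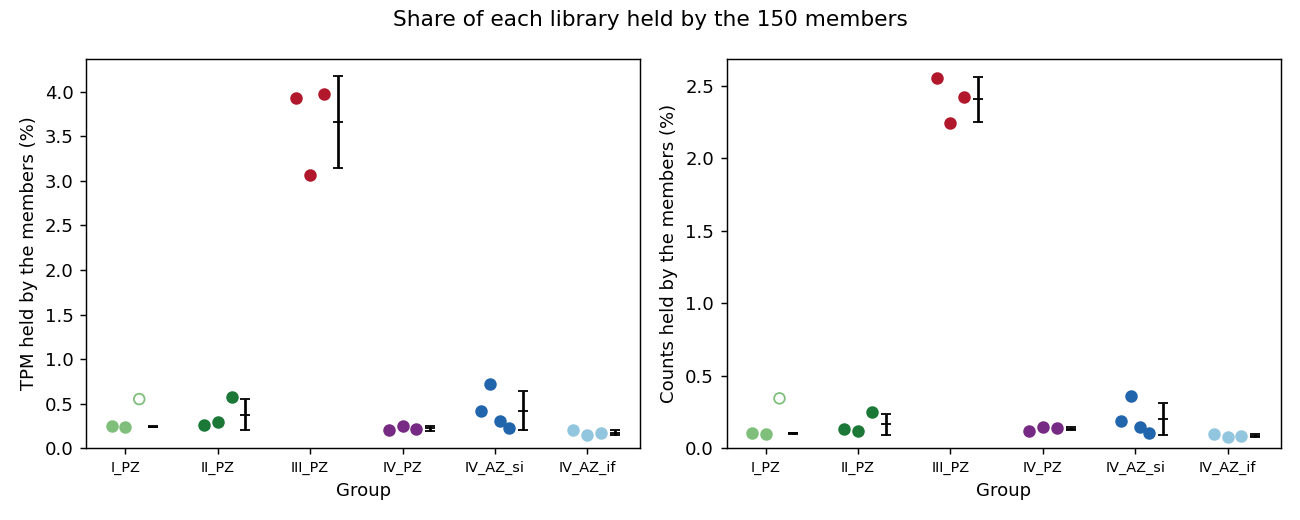
Share of each library held by the 150 members, as a percentage of TPM (left) and of estimated counts (right). Points are libraries, black bars are the group mean ± SD, and the open circle is I_PZ replicate 3, left out of the mean; the III_PZ libraries stand at 3.07% to 3.98% of TPM and 2.24% to 2.56% of counts.

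Single members ranged widely in level. Their means in III_PZ ran from 5.48 to 16554 TPM, with a median of 35.9. At least 100 TPM was reached by 36 members, and 13 stayed under 10 TPM. The gap that chose them ran from 2.56 to 6.94 on the log2(TPM + 1) scale, with a median of 3.28. For 147 of the 150 members, every III_PZ library exceeded every one of the other 16 libraries, I_PZ replicate 3 included. As the members were chosen by this gap, such separation is largely built in, and its share over all targets was not counted. Each of the 3 exceptions, Aa_G65840.h1, Aa_G456260.h1 and Aa_G350710.h1, had a III_PZ library with no count and was at 0 in all other groups. They rest on 10, 6 and 16 counts over the 3 III_PZ libraries and are 162, 162 and 219 bases long. The median member had 3525 counts over III_PZ, and 6 members had fewer than 100.

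**Figure D2:**
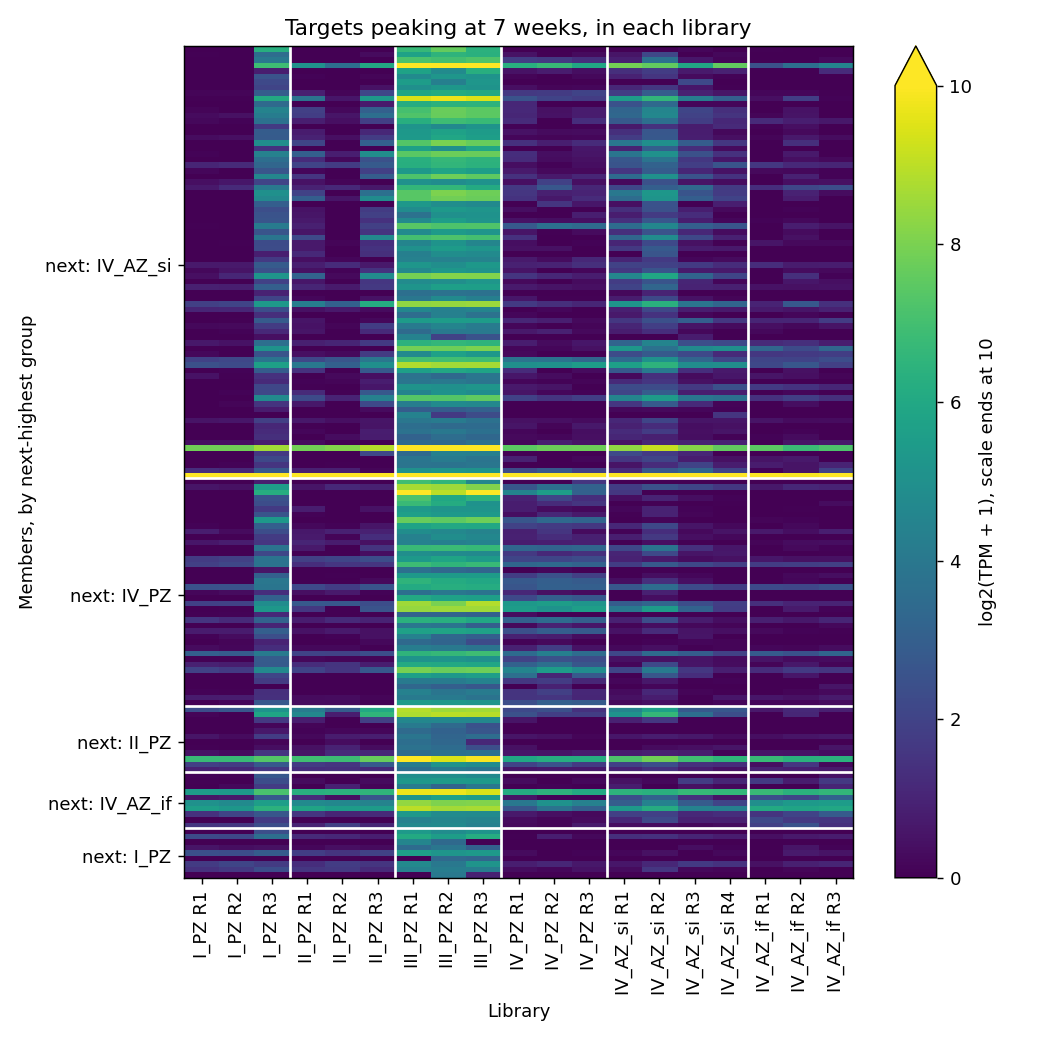
Abundance of each member (rows) in each of the 19 libraries (columns), as log2(TPM + 1). Rows are grouped by the group with the next-highest mean after III_PZ, and within it ordered by falling gap, with the 4 members at 0 in all other groups drawn in the I_PZ block; the III_PZ columns stand out in every block, and fainter signal is seen in I_PZ replicate 3, II_PZ replicate 3 and IV_AZ_si replicates 1 and 2.

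Of the 4 most abundant members, 3 were abundant in every group and stood higher still at 7 weeks. Aa_G401510.h1, of 156 bases, had 18062, 12726 and 18873 TPM in III_PZ. Elsewhere it ranged from 954 TPM in IV_AZ_if replicate 2 to 4804 TPM in IV_AZ_si replicate 2. Its III_PZ values rest on 14862 estimated counts, and its short effective length inflates the TPM.
Aa_G401520.h1, of 1182 bases, had 2473, 1595 and 2316 TPM in III_PZ and 113 to 557 TPM in the other libraries. Aa_G271310.h1, of 2268 bases, had 1096, 685 and 967 TPM in III_PZ and 60.4 to 225 TPM in the others. By counts these were far larger than the first, with 246841 and 223399 over III_PZ. All 3 share reads with other targets, so that the split of those reads among targets is uncertain. All 3 were lowest in III_PZ replicate 2 and highest outside III_PZ in IV_AZ_si replicate 2. Aa_G950580.h1, of 201 bases, behaved differently. It had 4436, 2644 and 4500 TPM in III_PZ and none in I_PZ replicates 1 and 2. At 5 weeks it had 31.9, 11.5 and 65.5 TPM, at 30 weeks 78.9, 105 and 61.4 TPM in the perennial zone, 242, 195, 61.0 and 193 TPM in IV_AZ_si, and 4.57, 11.5 and 21.6 TPM in IV_AZ_if. It was thus absent from both I_PZ libraries used, and at 30 weeks the group means fell in the order IV_AZ_si, IV_PZ, IV_AZ_if, although 1 IV_AZ_si library, at 61.0 TPM, lay below the lowest of IV_PZ. Without the top 2 members by TPM the members held 1.62% ± 0.0780 (SD, n = 3) of III_PZ, and without the 34 members that share reads 1.34% ± 0.111 (SD, n = 3).

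The widest gaps belonged to members that were nearly absent elsewhere. Aa_G766740.h1 had 104, 195 and 82.2 TPM in III_PZ, a gap of 6.94. Outside III_PZ it was found at 76.2 TPM in I_PZ replicate 3, at 0.0501 and 0.139 TPM in IV_AZ_si replicates 1 and 3, at 0.0473 TPM in IV_AZ_if replicate 1, and in no other library. It shares reads with other targets. Aa_G359980.h1, with a gap of 5.61, had 122, 92 and 23.8 TPM in III_PZ, 0.732 TPM in I_PZ replicate 3 and 1.94 TPM in IV_PZ replicate 3, and was at 0 in the rest. Its 231 bases gave 311 counts over III_PZ, so the TPM of this member overstates its reads. Among members with a count in every group, Aa_G279770.h1 had the lowest next group relative to III_PZ. It had 409, 373 and 272 TPM in III_PZ, and the next group was IV_PZ with 5.45, 11.6 and 7.74 TPM, or 2.36% of the III_PZ mean. It stayed at 0.365 to 1.24 TPM in I_PZ replicates 1 and 2 and in II_PZ, and at 0.559 to 4.51 TPM in the annual zone. Aa_G318790.h1 followed with 17, 8.31 and 14.6 TPM in III_PZ and a next group, IV_AZ_if, at 2.57% of that mean, which came from 1 library at 1.03 TPM with the others at 0.

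Many members varied widely among the 3 III_PZ libraries. Their median coefficient of variation (CV, the SD as a percentage of the mean) was 15.3%, with quartiles of 8.53% and 22.9%, against a median of 8.20% over all 16475 targets with at least 5 TPM in III_PZ. The most even members were Aa_G111910.h1, with 23.9, 24.7 and 24.4 TPM (CV 1.63%), and Aa_G452770.h1, with 43.4, 45.1 and 45.5 TPM (CV 2.52%). The most uneven were Aa_G350710.h1, with 0, 15.5 and 0.903 TPM, and Aa_G174590.h1, with 20.4, 2.29 and 3.99 TPM. These last members rest on 16 and 12 counts. The members had a median length of 1009.5 bases, close to the 1017 bases over the same 16475 targets. Reads were shared with another target by 34 members (22.7%), against 19.1%.

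Outside III_PZ the members were low. The next-highest group stood at a median of 6.25% of the III_PZ mean, with quartiles of 4.28% and 10.3% and a highest value of 17%, a range that the gap of the rule bounds. This next group was IV_AZ_si for 78 members, IV_PZ for 41, II_PZ for 12, IV_AZ_if for 10 and I_PZ for 5, while 4 members, at 0 in all 5 groups, had none. By group means, the short annual internode at 30 weeks was thus most often the group nearest to the 7-week perennial stem, and the 4-week stem least often. This ranking depends on single libraries. The median member stood at 9.58% of III_PZ in IV_AZ_si replicate 2, against 0.856% to 3.51% in its group mates. It stood at 12.2% in I_PZ replicate 3, which was left out. No count at all was found for 62 members in I_PZ, 29 in II_PZ, 19 in IV_PZ, 10 in IV_AZ_si and 37 in IV_AZ_if. These numbers are not on an equal footing, as they cover 2 libraries of I_PZ, 4 of IV_AZ_si and 3 of each other group. The median member had 0.0295 TPM in I_PZ, 0.606 TPM in II_PZ, 0.546 TPM in IV_PZ, 1.36 TPM in IV_AZ_si and 0.166 TPM in IV_AZ_if. By these medians, with I_PZ replicate 3 left out, members were lowest at 4 weeks and in the internode beside the inflorescence. Across groups, 41 members were under 1 TPM in all 5. By contrast 49 members had at least 5 TPM in another group, and 6 had it in all 5.

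**Figure D3:**
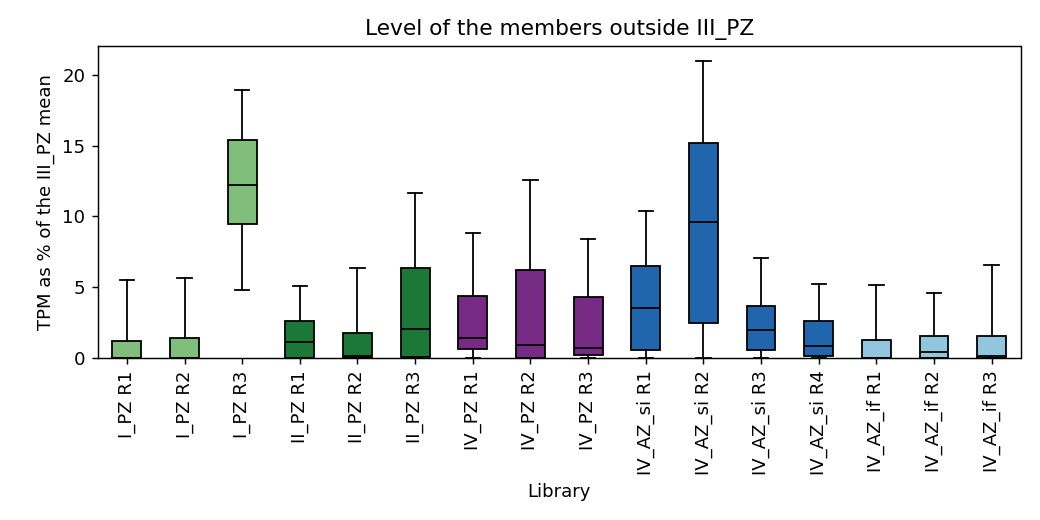
Level of the 150 members in each library outside III_PZ, as a percentage of the member's own III_PZ mean. Lines in the boxes are medians, boxes span the quartiles and whiskers the 10th to 90th percentiles; I_PZ replicate 3 (median 12.2%) and IV_AZ_si replicate 2 (median 9.58%) stand above the other libraries of their groups.

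In I_PZ replicate 3 nearly every member was present at a similar fraction of its 7-week level. The median was 12.2% of the III_PZ mean, with quartiles of 9.47% and 15.4%, while the medians in I_PZ replicates 1 and 2 were 0.0145% and 0.0106%. In 124 members the value lay between 5% and 20%. Replicate 3 exceeded both other I_PZ libraries for 143 of the 150 members (95.3%), against 49.9% of the targets with at least 5 TPM in III_PZ, and 57 members with no count in replicates 1 and 2 had a count in replicate 3. The rule kept members low in replicates 1 and 2, which favours a higher replicate 3, while those targets were under no such condition. Among the other 335 targets that met the rule, the share was 88.4%. Set against the excess of III_PZ over I_PZ replicates 1 and 2, the excess of replicate 3 had a median of 11.1% over the members and 9.99% over the other 335 targets that met the rule. A few members departed from this fraction. Among the 108 members with at least 20 TPM in III_PZ, 5 were above 20% and 6 below 5%. Aa_G766740.h1 stood at 59.9% (76.2 TPM) and Aa_G48110.h1 at 28.3% (13.1 TPM, against 2.37 and 2.70 TPM in replicates 1 and 2 and 40.1, 55.9 and 42.8 TPM in III_PZ). Aa_G359980.h1 stood at 0.923% and Aa_G354970.h1, which shares reads, at 1.43% (0.740 TPM, against 53.5, 26.3 and 75.1 TPM in III_PZ). The source of these transcripts in I_PZ replicate 3 was not tested.

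Within II_PZ and IV_AZ_si many members shared one order of the libraries. Of the 106 members with at least 0.1 TPM in II_PZ, 72 (67.9%) were highest in replicate 3, against 31.5% of the targets with at least 5 TPM in III_PZ. Of the 131 members with at least 0.1 TPM in IV_AZ_si, 108 (82.4%) were highest in replicate 2, against 28.4%. Full orders were shared too. Replicate 3 exceeded 1, and 1 exceeded 2, within II_PZ for 57 of 106 members (53.8%, against 14.3%). Within IV_AZ_si the order 2, 1, 3, 4 held for 69 of 131 members (52.7%, against 7.90%). Both orders held for 46 of the 150 members (30.7%), for 19 of the 335 other targets that met the rule (5.67%), and for 1.42% of the targets with at least 5 TPM in III_PZ. Replicate numbers carry no order of their own, and these orders were chosen after the values were seen, so no test is given.

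The 46 members with both orders also shared an order at 7 weeks, which did not enter their choice. In III_PZ, 38 of them were highest in replicate 2 and 39 were lowest in replicate 1, while over the 16475 targets 43.8% were highest in replicate 2 and 40.9% lowest in replicate 1. Their medians in III_PZ replicates 1 to 3 were 84.3%, 115% and 101% of the group mean. In II_PZ the medians were 1.67%, 0.157% and 5.73% of the III_PZ mean, and in IV_AZ_si 5.87%, 15.3%, 2.34% and 0.920%. The other 104 members had medians of 106%, 98.0% and 98.4% in III_PZ. For 35 of the 46, IV_AZ_si was the next-highest group. Both orders require counts in II_PZ and IV_AZ_si, so members at 0 in either group could not be among the 46. That number, and the overlaps given below of the 46 with calls higher in II_PZ or IV_AZ_si, are thus in part built in. A clear instance of these orders is Aa_G13250.h1, with 170, 227 and 209 TPM in III_PZ, 6.94, 0.463 and 28.3 TPM in II_PZ, and 10.7, 35.2, 7.02 and 3.03 TPM in IV_AZ_si. In the other groups it was low, with 1.79, 0.549 and 1.33 TPM in IV_PZ, at most 0.709 TPM in IV_AZ_if, and none in I_PZ replicates 1 and 2. What sets these libraries apart was not tested.

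**Figure D4:**
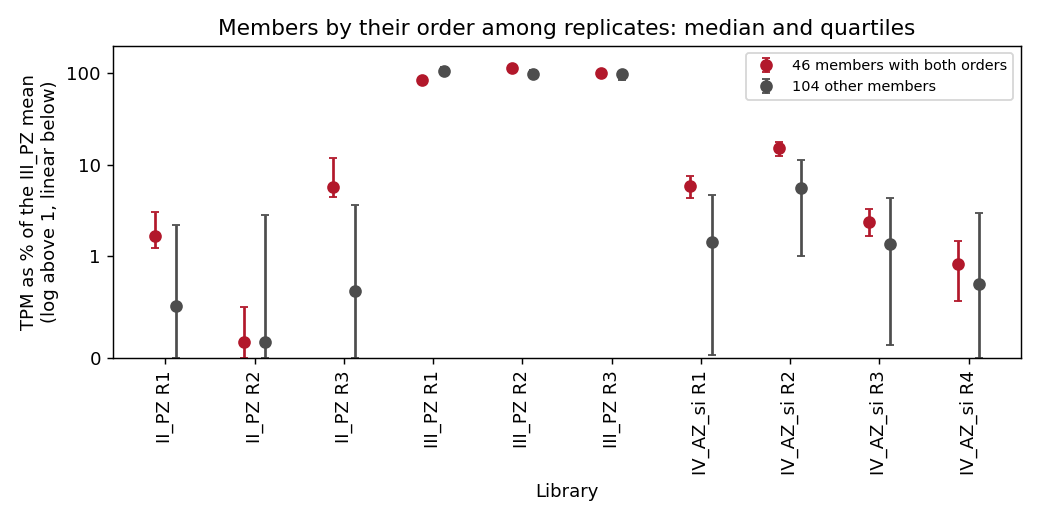
Members grouped by whether they show both replicate orders (II_PZ: 3, 1, 2; IV_AZ_si: 2, 1, 3, 4), with their level in each library as a percentage of the III_PZ mean. Points are medians and bars quartiles, on an axis that is logarithmic above 1 and linear below; the grouping fixes the order in II_PZ and IV_AZ_si but not in III_PZ, where the 46 members have medians of 84.3%, 115% and 101%.

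Differences among the other 5 groups were tested, because the rule limits their size but fixes no direction. All used edgeR's quasi-likelihood test on the estimated counts of 18 libraries, with p-values adjusted over 23904 targets by the Benjamini-Hochberg method and a call at an adjusted p under 0.05. The filter on counts covered all 6 groups, III_PZ included, so a member could pass it through its 7-week counts alone. It kept 146 of the members for testing and left out 4. In fits of only the 2 groups compared, 78 to 114 members passed, and their calls are given beside the main ones. The 5 comparisons share groups and are not independent of each other. In none of them were 28 of the 146 members called. The next-highest group comes from the same group means that the comparisons use. The tallies below of called members by next-highest group are thus in part built in.

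**Figure D5:**
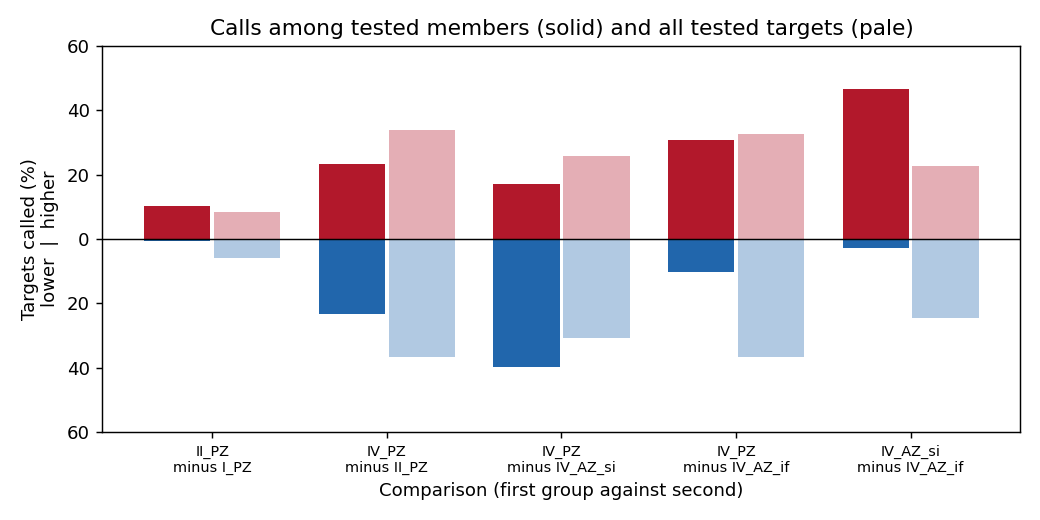
Percentage of targets called higher (red, upwards) or lower (blue, downwards) in the first group of each comparison, for the 146 tested members (solid) and for all 23904 tested targets (pale). Members were called higher in IV_AZ_si than in IV_AZ_if in 46.6% of cases, against 22.8% of all targets.

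From 4 to 5 weeks, before the peak, the test had only 2 I_PZ libraries, and a member not called is not shown to be unchanged. In II_PZ, 15 members rose and 1 fell against I_PZ, where 8.29% of all tested targets rose and 5.99% fell. The share of members called was 11%, against 14.3% of all targets, but 22 of the tested members had no count in either group. All 15 rises were at least 2-fold, to a median of 4.57% of the III_PZ mean, and 9 of the 15 were among the 46 members with both replicate orders. The members' median log2 fold change was 1.48, or 0.84 with the 39 members that had no count in 1 of the groups set at the bound that 3 counts give, against 0.00 over all targets. In a fit of only the 2 groups, 12 of 78 members rose and 2 fell, where 8.40% of all targets rose and 6.91% fell.
Aa_G35450.h1 had 0.0163 and 0 TPM in I_PZ replicates 1 and 2 and 3.79, 1.00 and 20.0 TPM in II_PZ. That is 1491 counts against 1, a ratio of 1122 (95% exact Poisson interval 201 to 44315; edgeR adjusted p = 0.00282). The groups did not overlap, but II_PZ replicate 3 held most of the counts, and without it the ratio was 309 (55.5 to 12204). Without I_PZ replicate 2 the ratio was 531 (95.3 to 20976) and the call was lost, and without I_PZ replicate 1, which held the only I_PZ count, Aa_G35450.h1 was at least 197-fold higher. Aa_G13250.h1 had no count in I_PZ and 521 in II_PZ, at least 131-fold higher, with the group at 0 set to 3 counts in all (edgeR adjusted p = 0.0236), and at least 38.1-fold without II_PZ replicate 3. The bound was 200-fold without II_PZ replicate 2 and 68.8- and 61.9-fold without I_PZ replicates 1 and 2, and the call on Aa_G13250.h1 was lost without II_PZ replicate 3 or either I_PZ library. It was also lost in limma on log2(TPM + 1), in a fit of only the 2 groups and with I_PZ replicate 3 in the fit, as was that on Aa_G35450.h1 in the last of these.
The 1 member that fell was Aa_G231640.h1, with 3.70 and 3.47 TPM in I_PZ and 1.31, 1.14 and 0.814 TPM in II_PZ, a log2 fold change of -1.67 ± 0.44 (SE; edgeR adjusted p = 0.0161). Its libraries did not overlap, yet the call was lost without II_PZ replicate 3, without I_PZ replicate 1 or 2, and in limma on log2(TPM + 0.1).

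This step rested on single libraries. Without II_PZ replicate 3, only 2 members were called in edgeR, both higher, with a members' median log2 fold change of 0.62, and without I_PZ replicates 1 and 2 in turn 2 and 1 were called. Without II_PZ replicate 2, 30 rose and 1 fell. With I_PZ replicate 3 put back, no member rose and 14 fell, the median was -1.16, and 54 members at an unadjusted p under 0.05 became 47. Over all targets, 9.33% rose and 6.78% fell in that fit. Only 2 members were called both with and without I_PZ replicate 3. The number of rises in DESeq2 was 37, where 9.99% of all targets rose. Which members changed between 4 and 5 weeks thus depended on the libraries used, and the direction on whether I_PZ replicate 3 was among them.

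Between 5 and 30 weeks, on either side of the peak, as many members ended higher as lower. In IV_PZ, 34 members were higher and 34 lower than in II_PZ, where 34% of all targets were called higher and 36.6% lower. In all, 46.6% of the tested members were called, against 70.5% of the targets, and the members' median log2 fold change was -0.02, or 0.00 with members at 0 set at their bound. In a fit of only the 2 groups, 28 of 96 members were higher and 27 lower, where 34.1% of all targets were higher and 36.3% lower. The 34 higher members kept a median of 8.48% of their III_PZ mean at 30 weeks, and for 29 of them IV_PZ was the next-highest group. Of the 34 lower members, 18 were among the 46 with both replicate orders. Without II_PZ replicate 3, 37 members were higher and 15 lower, where 32.9% of all targets were higher and 35.9% lower.
Aa_G101340.h1 had no count at 5 weeks and 5.37, 9.77 and 8.30 TPM at 30 weeks, after 202, 182 and 223 TPM at 7 weeks. With II_PZ set to 3 counts in all, it was at least 417-fold higher in IV_PZ (edgeR adjusted p = 3.32e-09). Aa_G103300.h1, which shares reads, had none at 5 weeks and 3.64, 7.06 and 5.64 TPM at 30 weeks, after 65.1, 52.1 and 49.2 TPM at 7 weeks. It was at least 216-fold higher in IV_PZ (edgeR adjusted p = 6.88e-07).
Neither member had a count in I_PZ replicates 1 and 2 or in II_PZ, both were abundant at 7 weeks, and both were still found in the perennial zone at 30 weeks at a small part of that level. Without 1 of the II_PZ libraries, all of them at 0, the bounds were 269- to 288-fold for Aa_G101340.h1 and 139- to 149-fold for Aa_G103300.h1.
The opposite was seen for Aa_G188950.h1, which shares reads. It had 4.40 and 4.32 TPM in I_PZ, 2.64, 1.87 and 2.92 TPM in II_PZ, 49.4, 36.1 and 42.0 TPM in III_PZ, and 0.211, 0 and 0.0750 TPM in IV_PZ. It was lower in IV_PZ than in II_PZ by a log2 fold change of -4.82 ± 0.65 (SE; edgeR adjusted p = 3.86e-06), which was -6.09 without IV_PZ replicate 1 and -4.22 without IV_PZ replicate 2. Aa_G372600.h1 had no count in IV_PZ and 0.583, 0 and 3.61 TPM in II_PZ, at least 16.2-fold lower (edgeR adjusted p = 0.0128), with 1 II_PZ library also at 0. Its bound was 3.13-fold without II_PZ replicate 3, where the call was lost, and 25.2-fold without II_PZ replicate 2; it was 20.5-fold without II_PZ replicate 1. In limma the call on this member was also lost.

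At 30 weeks the members split between zones. In IV_PZ, 25 members were higher and 58 lower than in the short annual internode IV_AZ_si, where 25.8% of all targets were called higher and 30.7% lower. The share called (56.8%) was close to that of all targets (56.5%), but the members' median log2 fold change was -1.08, or -0.93 with members at 0 set at their bound, against -0.03. In a fit of only the 2 groups, 23 of 114 members were higher and 49 lower, where 27.5% of all targets were higher and 29.9% lower. Of the 25 higher members 24 had IV_PZ as next-highest group, and of the 58 lower ones 49 had IV_AZ_si and 35 were among the 46 with both replicate orders. Without IV_AZ_si replicate 2 the counts were 38 higher and 39 lower, with a median of -0.73, where 25.3% of all targets were higher and 30.0% lower. With I_PZ replicate 3 in the fit, 22 members were higher and 37 lower, where 25.7% of all targets were higher and 31.4% lower.
Aa_G101340.h1 was higher in IV_PZ, with the 5.37 to 9.77 TPM given above against 0.105 TPM in IV_AZ_si replicate 2 and none in the other 3 IV_AZ_si libraries. Its log2 fold change was 8.19 ± 0.46 (SE; edgeR adjusted p = 2.83e-09). Without IV_AZ_si replicate 2 it was at least 484-fold higher. Aa_G103300.h1 had 0.0247, 0.282, 0 and 0 TPM in IV_AZ_si and was higher in IV_PZ by a log2 fold change of 6.19 ± 0.53 (SE; edgeR adjusted p = 7.87e-07), which was 9.08 without IV_AZ_si replicate 2.
For both, IV_PZ and IV_AZ_si did not overlap.
Lower in IV_PZ was Aa_G522020.h1, with no count there and 0.434, 1.38, 3.08 and 0.720 TPM in IV_AZ_si. It was lower by at least 99.7-fold (edgeR adjusted p = 2.05e-05) and by 60.0-fold without IV_AZ_si replicate 3. Aa_G372600.h1 had 2.00, 6.17, 1.30 and 0.0957 TPM in IV_AZ_si and was at least 23.2-fold lower in IV_PZ (edgeR adjusted p = 0.00656). This bound was 10.8-fold without IV_AZ_si replicate 2. Leaving out a library with no count lowers a bound by the depth alone, which gave 15.2- to 15.6-fold for Aa_G372600.h1 and 65.3- to 67.1-fold for Aa_G522020.h1.

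Against the internode beside the inflorescence, most of the members that were called were higher in the perennial zone. In IV_PZ, 45 members were higher and 15 lower than in IV_AZ_if, where 32.6% of all targets were called higher and 36.6% lower. Their median log2 fold change was 1.60, or 1.33 with members at 0 set at their bound, against -0.02 over all targets. That median was 0.83 without IV_PZ replicate 1 and 2.57 without IV_AZ_if replicate 2. Of the tested members 30.8% were called higher and 10.3% lower. In a fit of only the 2 groups, 37 of 87 members were higher and 16 lower, where 33.3% of all targets were higher and 35.1% lower. IV_PZ was the next-highest group for 35 of the 45.
Aa_G103300.h1 had no count in IV_AZ_if and was at least 226-fold higher in IV_PZ (edgeR adjusted p = 6.80e-07). Aa_G617730.h1 had 142, 61.1 and 87.3 TPM in III_PZ, 0.949, 3.26 and 1.47 TPM in IV_PZ and no count in I_PZ replicates 1 and 2, II_PZ or IV_AZ_if. It was at least 77.9-fold higher in IV_PZ than in IV_AZ_if (edgeR adjusted p = 0.00039), and 50.7-fold without IV_PZ replicate 2.
Leaving out 1 IV_AZ_if library, all of them at 0, gave bounds of 49.1- to 53.3-fold for Aa_G617730.h1 and of 142- to 155-fold for Aa_G103300.h1.
Lower in IV_PZ was Aa_G207260.h1, which shares reads, with 230, 223 and 261 TPM in III_PZ and none in I_PZ replicates 1 and 2 or II_PZ. It had 0.137, 0.135 and 0.348 TPM in IV_PZ, 8.74, 3.85 and 8.91 TPM in IV_AZ_if, and 38.5, 12.2, 26.9 and 30.2 TPM in IV_AZ_si. Its log2 fold change was -5.20 ± 0.59 (SE; edgeR adjusted p = 1.77e-06), and -5.82 without IV_PZ replicate 3. After 7 weeks this member was thus found mainly in the annual zone. Aa_G107510.h1 had 0.189, 0 and 0 TPM in IV_PZ and 2.1, 2.26 and 2.56 TPM in IV_AZ_if, a log2 fold change of -5.20 ± 1.04 (SE; edgeR adjusted p = 0.000256). Its 4 IV_PZ counts all came from replicate 1, and without that library the log2 fold change was -8.60.

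Within the annual zone, most of the members that were called were higher in the short internode. In IV_AZ_si, 68 members were higher and 4 lower than in IV_AZ_if, where 22.8% of all targets were called higher and 24.6% lower. The members' median log2 fold change was 2.32, or 1.83 with members at 0 set at their bound, against 0.02 over all targets. In a fit of only the 2 groups, 59 of 99 members were higher and 2 lower, where 22.2% of all targets were higher and 24.7% lower. All 68 higher members differed by at least 2-fold, with IV_AZ_si at a median of 5.57% of III_PZ. Of the 68, 37 were among the 46 members with both replicate orders, an overlap in part built in, as those orders require counts in IV_AZ_si. IV_AZ_si replicate 2 held more of the members than its group mates. Without it 52 members were higher and 7 lower, with a median of 1.72, where 20.3% of all targets were higher and 22.8% lower. Without IV_AZ_si replicate 4 or IV_AZ_if replicate 3, 2 members were lower, where 23.9% and 22.0% of all targets were lower. Scaling to the TPM total moved the median of all targets in this comparison from 0.02 to 0.19 and its calls from 5451 higher and 5869 lower to 7839 and 4327, while the members had 75 higher and 2 lower calls and a median of 2.44.
Aa_G797250.h1, which shares reads, had 0.492, 3.37, 0.0216 and 0.171 TPM in IV_AZ_si and no count in IV_AZ_if, at least 41.5-fold higher (edgeR adjusted p = 0.0176). Without IV_AZ_si replicate 2 the bound was 9.32-fold, and the call was lost in limma on log2(TPM + 1) and with I_PZ replicate 3 in the fit. Aa_G11150.h1 had 0.922, 6.92, 1.44 and 0.234 TPM and no count in IV_AZ_if, at least 39.7-fold higher (edgeR adjusted p = 0.00505), and 14.4-fold without IV_AZ_si replicate 2.
In both members that library held most of the signal. Without 1 of the IV_AZ_if libraries, all at 0, the bounds were 26.2- to 28.4-fold for Aa_G797250.h1 and 25- to 27.2-fold for Aa_G11150.h1.
Of the 4 lower members, Aa_G487740.h1 had 0.305, 0.249, 0.161 and 0.248 TPM in IV_AZ_si and 2.72, 4.81 and 1.58 TPM in IV_AZ_if, a log2 fold change of -3.82 ± 0.51 (SE; edgeR adjusted p = 1.06e-05). Aa_G198840.h1 had 6.62, 20.8, 6.28 and 3.13 TPM in IV_AZ_si and 29.4, 40.0 and 45.1 TPM in IV_AZ_if, a log2 fold change of -2.24 ± 0.40 (SE; edgeR adjusted p = 0.000196), and -3.03 without IV_AZ_si replicate 2. Both were also present in the young perennial stem, with 1.95 and 2.11 TPM of Aa_G487740.h1 and 32.5 and 26.6 TPM of Aa_G198840.h1 in I_PZ replicates 1 and 2. Neither pair of annual groups overlapped.

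The end of the list marks no break in the data. The last members inside it, Aa_G401510.h1 and Aa_G140680.h1, had gaps of 2.56. Aa_G140680.h1 had 11.2, 14.8 and 13.4 TPM in III_PZ and 0.363 to 1.98 TPM in the other libraries. The first targets outside, Aa_G414820.h1 and Aa_G143270.h1, had gaps of 2.55. They had 226, 166 and 202 TPM and 194, 189 and 204 TPM in III_PZ, against 13.2 to 55.4 and 11.7 to 35 TPM elsewhere.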

How the data were processed

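RNA sequencing libraries were made with a stranded TruSeq mRNA kit, per the labels' protocols, and processed with bcl2fastq and kallisto, per the submitters' processing notes. Tool versions and the reference were not given in the sources used here. The authors deposited estimated counts, lengths and TPM per library, and a TPM table of the series, per the file headers. Effective lengths were identical in all libraries. The members and lists were chosen with earlier results of these data known.

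Group means were taken from the deposited TPM. Estimated counts were rounded and tested with edgeR 4.0.16 (R 4.3.3) in 1 fit of 18 libraries, with group as the only term, TMM scaling and the default filter (minimum count 10, minimum total 15). A target shares reads if any count lies further than 0.001 from a whole number. Replicates are separate samples in the labels, and p-values measure the spread between them. Floors of 3 counts and Poisson intervals cover counting error only. The minimum of 5 TPM was read as the III_PZ mean. Named members were the extremes of gap, III_PZ level, list end, share in I_PZ replicate 3, CV, relative level of the next group (counted in every group), and the 2 largest rises and falls per comparison among called members with at least 1 TPM. Gene lists could not be matched to the identifiers and were not tested. Alternatives used DESeq2 1.42.0 and limma 3.58.1, RLE or TPM-scale factors, only the 2 groups, no filter, a block on the replicate number and each replicate left out.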

Additional observations from a re-analysis of the deposited data

Results flagged for a closer look

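In IV_AZ_si, the group with 4 libraries, Dixon's ratio was used to look for a single library far from the rest. The 29 checks covered the members' share of TPM and the named members not at 0 in all of these libraries. A single far library was found in 4 checks, all of named members. Chance alone marks about 1 group in 20, but that rate does not hold here, because some of these members were named as extremes of comparisons that use IV_AZ_si. The gap to the nearest library, as a part of the whole range, was 1 for Aa_G174590.h1 (1.90 TPM in replicate 4 and 0 in the others) and 1 for Aa_G101340.h1 (0.105 TPM in replicate 2 and 0 in the others). It was 0.912 for Aa_G103300.h1 (0.282 TPM in replicate 2, against at most 0.0247) and 0.859 for Aa_G797250.h1 (3.37 TPM in replicate 2, against at most 0.492). With 3 libraries at 0 the ratio of the first 2 is fixed at 1, and the TPM behind the first 3 is low.

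I_PZ replicate 3 held 0.551% of its TPM in the members, above the 0.251% and 0.237% of I_PZ replicates 1 and 2. It was left out of the rule and the main fit because it was known to hold transcripts high in III_PZ. The higher share was therefore foreseen and is no independent observation. The source was not tested.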

How the results depend on the processing

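The comparison of II_PZ with I_PZ depended most on the processing. With 1 replicate left out, 1 to 31 members were called, 1 to 30 higher and 0 to 1 lower. Without II_PZ replicate 3 and IV_AZ_si replicate 2, chosen after the data were examined, 10 were called, 9 of them higher. With I_PZ replicate 3, 0 were higher and 14 lower. In limma on log2(TPM + 1), 6 were called, 5 higher (6.47%), and on log2(TPM + 0.1), 8 were called, 8 higher (6.49%) and 0 lower (6.78%). DESeq2 called 38, 37 higher (9.99%). In a fit of only the 2 groups, 2 of 78 tested were lower (6.91%). For IV_PZ against II_PZ, 45 were called without members that share reads, 18 of them higher. The lower calls were 18 without both libraries, 15 to 41 with 1 replicate left out, 14 in limma on log2(TPM + 1) and 21 on log2(TPM + 0.1). For IV_PZ against IV_AZ_si, the higher calls were 15 without members that share reads (25.8%) and 41 without both libraries (25.9%). With 1 replicate left out they were 24 to 38 (23.5% to 25.3%), and the lower calls were 37 with I_PZ replicate 3 (31.4%). For IV_PZ against IV_AZ_if, 39 were called without members that share reads, 28 of them higher (32.6%). For IV_AZ_si against IV_AZ_if, the lower calls were 2 with I_PZ replicate 3 (23.9%), the size factors of the TPM scale (18.1%) or only the 2 groups (24.7%). They were also 2 in limma with either pseudocount (18.3% and 17.6%). They were 8 without both libraries (23.3%), and 2 to 7 with 1 replicate left out (22.0% to 23.9%). Leaving out members that share reads leaves fewer members to call; otherwise the cause was not tested. No direction reversed in any alternative run on the named members, while the direction of the calls between II_PZ and I_PZ turned with I_PZ replicate 3.

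The replicate numbers did not pair the samples: deviations of same-numbered libraries correlated at -0.053 to 0.049 over 23904 targets. A replicate block changed the lower calls of IV_AZ_si against IV_AZ_if to 2, with 76 higher, and moved no other count by over 1.5 times. In that fit 23.3% of all targets were lower and 21.3% higher.

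With a gap of at least 2, 222 targets met the rule, and with the minimum of 5 TPM over the mean of the 6 groups 282 did, with 96 of the members in the resulting list. The members' share of TPM in III_PZ, 3.66%, was 1.62% without the 2 most abundant, 1.34% without those that share reads, 1.5% without those shorter than 300 bases, and 2.41% as a share of counts, the last 2 chosen after the data were examined. At the depth of these libraries, targets with few counts carry bounds in place of folds.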
